A study of Mus musculus with 9 samples.

Results

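The major histocompatibility complex (MHC) genes and their partners in antigen presentation were followed in mouse liver. The members were all gene IDs in either deposited comparison table whose mouse symbol begins with H2-, or is Cd74, Ciita, B2m, Tap1, Tap2, Tapbp, Tapbpl, Erap1, Nlrc5, Rfx5, Cd1d1, Cd80 or Cd86. This gave 37 of 16521 IDs, 24 with H2- symbols and 13 others. By what they encode, 14 are class I heavy chains, 6 are class I partners, 10 belong to class II, 3 are regulators of transcription, 2 are costimulatory ligands and 1 presents lipids. The remaining member, H2-Ke6, is an enzyme gene named after its place in the locus, and it had 1 read in all 9 libraries.

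Nearly every nucleated cell displays class I molecules, a heavy chain paired with B2m and loaded in the endoplasmic reticulum with peptides that the TAP transporter brings in, to CD8 T cells. Class II molecules are pairs of alpha and beta chains that display peptides from endocytosed protein to CD4 T cells, and they are made mainly by dendritic cells, macrophages and B cells. In liver, hepatocytes and sinusoidal cells carry class I, while class II is largely a matter of immune cells. CIITA is the coactivator that class II genes depend on, and NLRC5 serves class I genes in a similar way.

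The study compared liver of C57BL/6 mice in 3 groups of 3 samples by RNA sequencing. The sample titles name the groups wt, model and high dose SAR. The wt group is called normal here, and the titles use wt for that group alone. The SAR group received a diet deficient in methionine and choline (MCD), used to bring on nonalcoholic fatty liver disease, and a high dose of sarsasapogenin (SAR), a plant steroid; the model group received the MCD diet and no SAR; the normal group received saline and, per the labels, no MCD diet. The labels give no amount for the dose, no age or sex, and no vehicle for the model group, so SAR and any vehicle cannot be told apart, and mice on this diet are known to lose weight. They also do not say that the samples are separate mice, so the p-values reflect only how much these libraries vary, and part of that may be technical.

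Values below are normalised reads, the reads of a gene in a library divided by that library's size factor on 1 scale for the 9 libraries. The reads were recovered from the deposited group means, and the 3 libraries of a group are called a, b and c in order of size factor, which does not tie them to the labels' replicate numbers. All reads of the model libraries were recovered, 12503819 to 14939063 per library. In the SAR and normal groups the most abundant genes could not be split among libraries, and the group totals lay between 36150018 and 37416967 reads in SAR and between 43112764 and 45907824 reads in normal. Of the 37 members 36 were recovered in all 9 libraries; B2m had 3 possible solutions in SAR. Library c of the model group and library c of the normal group stood apart. Over 11848 genes model c correlated with model a and b at 0.931 and 0.943 (Pearson's r of log2 values), against 0.981 between a and b, and normal c with normal a and b at 0.933 and 0.925, against 0.980 between a and b. The 3 SAR libraries correlated at 0.965 to 0.972. In normal c the 5 neutrophil markers summed to 5810 normalised reads, against 61.5 and 169 in normal a and b. Of 5 hepatocyte markers only 1, the transcription factor gene Hnf4a, could be split among the libraries of all groups. Hnf4a had 10117 to 12140 normalised reads in SAR, 4133 to 5164 in model and 11708 to 12692 in normal. It was lower in model livers than in both other groups, so it is a limited check of the tissue.

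Genes were tested with limma on log2(value + 1) where the mean over the 6 libraries compared was at least 10, with p-values adjusted by the method of Benjamini and Hochberg across every gene tested, and an adjusted p under 0.05 counted as a call. A log2 change is on the log2(value + 1) scale and understates the change of low genes. In model against normal liver 33 of the 37 members were tested, and 19 were called higher and 2 lower. Of all 12578 genes tested, 39% were called, 19.9% higher and 19.1% lower. In SAR against model 33 were tested, and 14 were called lower and 1 higher, against 29.3% of 12473 genes called, 16.1% lower and 13.2% higher. In SAR against normal 32 were tested and 3 were called, all higher, against 3.54% of 11615 genes, 1.71% higher and 1.83% lower. On the scales of the tests, the libraries of the groups did not overlap for 23 of 33 members higher and 2 lower in model against normal, against 27.3% and 26.6% of all genes tested. In SAR against model this held for 18 of 33 members lower and 1 higher, against 23.3% and 22% of all genes. In SAR against normal it held for 11 of 32 higher and 1 lower, against 15.9% and 17.3%. The authors' deposited test called 15 of the same 33 members higher and 2 lower in model against normal, against 13.2% and 10.3% of the 16374 genes it lists, and 11 lower and 1 higher in SAR against model, against 9.76% and 6.79% of 16294 genes. The first 2 comparisons share the model libraries, so they are not independent of each other. Without model a or without model b, 13 members were called in model against normal, all higher, while 21.4% and 19.6% of all genes were called. Without SAR b, without model a and without model b, 8, 8 and 9 members were called in SAR against model, all lower, while 14.3%, 13.6% and 12.5% of all genes were called. In SAR against normal 10 members were called without normal c, where 9.38% of all genes were called, and 4 without SAR b, where 0.146% were. By limma 0 were called without SAR a, SAR c, normal a or normal b, where 9, 7, 8 and 7 members had an unadjusted p under 0.05 and at most 0.465% of all genes were called. In bulk liver, fewer cells of a type and less RNA per cell cannot be told apart.

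Most class II genes were higher in model than in normal liver and lower in SAR than in model liver. Against normal liver, 7 of the 8 class II members tested were higher in model liver, with a median log2 change of 2.34, against a median of 0.03 over all genes tested. Against model liver, 6 of 9 were lower in SAR liver, with a median log2 change of -1.30, against 0.01 over all genes. Against normal liver, 2 of 8 were higher in SAR liver, with a median of 1.04, against -1e-04 over all genes. These medians cover only members that passed the filter on low values. Of all genes tested, 19.9% were higher in model against normal, 16.1% lower in SAR against model and 1.71% higher in SAR against normal.

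H2-Aa is a gene of a class II alpha chain, and H2-Ab1 and H2-Eb1 are genes of class II beta chains. Their RNA does not show which chains pair or reach the cell surface in these mice. H2-Aa had 1767, 1066 and 1667 normalised reads in SAR livers, 4687, 4115 and 2875 in model livers, and 607, 627 and 443 in normal livers. The 3 groups did not overlap: every model library was above every SAR library, and every SAR library was above every normal one. Its log2 change was -1.36 (SE 0.26, adjusted p = 0.00651) in SAR against model, 2.78 (SE 0.23, adjusted p = 0.000756) in model against normal, and 1.40 (SE 0.22, adjusted p = 0.0271) in SAR against normal. H2-Ab1 had 1323, 735 and 1372 normalised reads in SAR livers, 3557, 2873 and 2036 in model livers, and 532, 581 and 482 in normal livers. Again no library crossed into another group, although SAR b, the lowest SAR library, was close to the normal ones. The log2 change of H2-Ab1 was -1.30 (SE 0.29, adjusted p = 0.0118) in SAR against model and 2.37 (SE 0.21, adjusted p = 0.000893) in model against normal, and in SAR against normal it was 1.05 with an adjusted p of 0.0506, just short of the threshold. For H2-Eb1 the values were 1555, 781 and 1308 normalised reads in SAR livers, 4370, 3677 and 2224 in model livers, and 478, 447 and 376 in normal livers. H2-Eb1 showed the same order of groups, with log2 changes of -1.48 (SE 0.31, adjusted p = 0.0102) in SAR against model, 2.93 (SE 0.25, adjusted p = 0.000808) in model against normal and 1.43 (SE 0.24, adjusted p = 0.0315) in SAR against normal.

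Cd74 is the invariant chain, which fills the groove of new class II molecules and guides them to endosomes. It had 2239, 1183 and 2087 normalised reads in SAR livers, 5845, 5233 and 3950 in model livers, and 952, 864 and 812 in normal livers. All 3 groups were again apart, with a log2 change of -1.46 (SE 0.27, adjusted p = 0.00637) in SAR against model and 2.50 (SE 0.19, adjusted p = 0.000586) in model against normal. In SAR against normal it was 1.01 and missed the threshold (adjusted p = 0.0528). Within the model group these 4 genes had the same order, library a highest and library c lowest, and SAR b was the lowest SAR library for each of them.

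**Figure D1:**
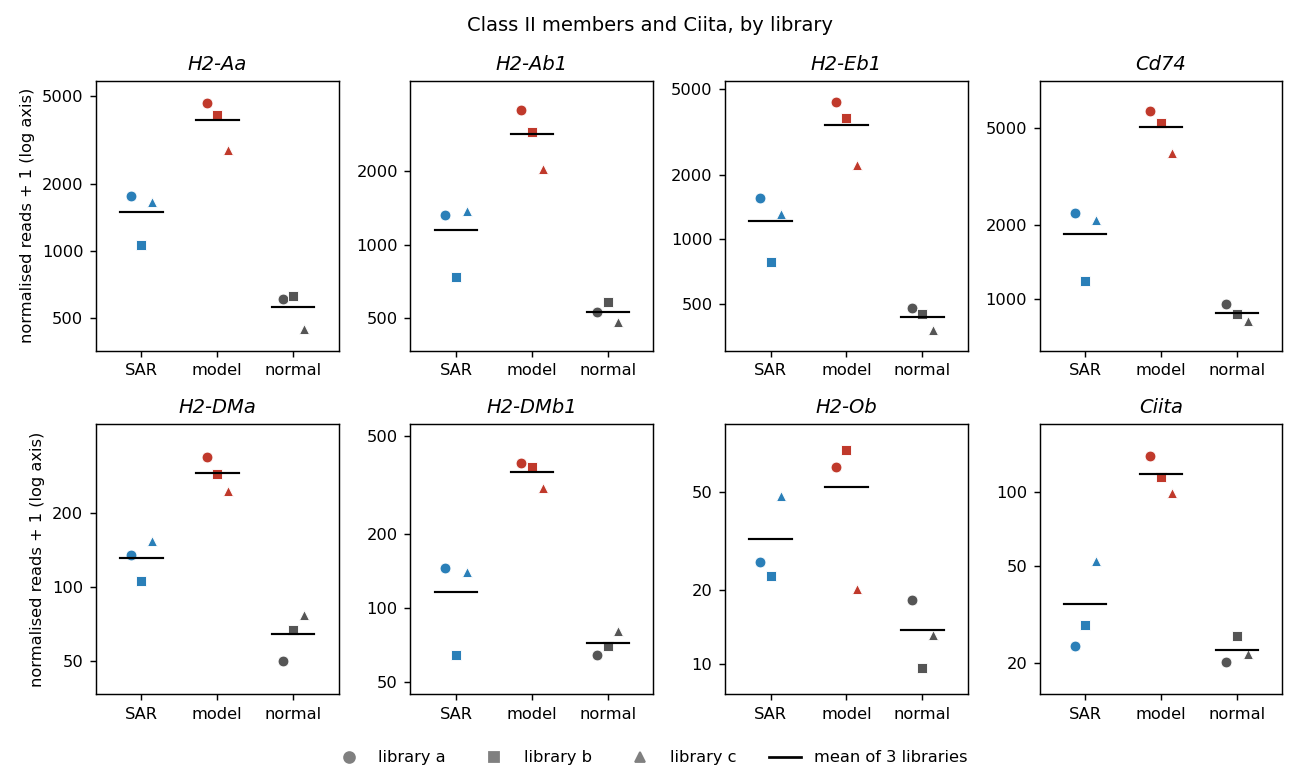
Normalised reads + 1 on a log axis for 7 class II members and the coactivator gene Ciita, with 1 point per library in the SAR, model and normal groups and a bar at the mean of the 3 libraries. For H2-Aa, H2-Ab1, H2-Eb1 and Cd74 the 3 groups do not overlap, while for H2-Ob model c, at 19.1 normalised reads, lies below every SAR library.

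H2-DMa and H2-DMb1 encode the chains of H2-DM, which removes the invariant chain remnant and edits the peptides of class II molecules. H2-DMa had 134, 105 and 153 normalised reads in SAR livers, 337, 288 and 246 in model livers, and 49.0, 65.8 and 76.0 in normal livers. Its groups did not overlap, and its log2 change was -1.13 (SE 0.20, adjusted p = 0.0053) in SAR against model, 2.18 (SE 0.22, adjusted p = 0.00118) in model against normal and 1.03 (adjusted p = 0.0574) in SAR against normal. H2-DMb1 had 144, 62.9 and 139 normalised reads in SAR livers, 389, 373 and 307 in model livers, and 63.4, 69.0 and 79.4 in normal livers. Here SAR b lay below each normal library, and SAR against normal was not called (log2 change 0.61, adjusted p = 0.267). The log2 change of H2-DMb1 was -1.68 (SE 0.30, adjusted p = 0.00561) in SAR against model and 2.32 (SE 0.18, adjusted p = 0.000586) in model against normal. H2-DMb2, a second beta chain gene of H2-DM, had 22.7, 18.2 and 12.8 normalised reads in SAR livers, 49.7, 42.8 and 15.2 in model livers, and 14.4, 15.1 and 17.6 in normal livers. Model c lay among the other groups for H2-DMb2, and no comparison was called, with log2 changes of -0.82 (adjusted p = 0.246) in SAR against model and 0.99 (adjusted p = 0.147) in model against normal. Without model c both were called, at -1.34 (adjusted p = 0.0281) in SAR against model and 1.50 (adjusted p = 0.0163) in model against normal. In an annotated transcriptome, 24.8% of the 50-base words of H2-DMb2 transcripts also occur in transcripts of other genes, mainly H2-DMb1, so reads could be split between the pair.

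H2-Oa and H2-Ob encode H2-O, an inhibitor of H2-DM known mainly from B cells, thymus epithelium and some dendritic cells. H2-Ob had 25.1, 21.8 and 47.5 normalised reads in SAR livers, 62.7, 73.3 and 19.1 in model livers, and 17.3, 8.63 and 12.1 in normal livers. All 3 model libraries lay above the normal ones, by a wide margin in a and b and a narrow one in c, with a log2 change of 1.79 (SE 0.57, adjusted p = 0.0396) in model against normal. That call was lost without model a, model b or any 1 of the normal libraries (adjusted p up to 0.152), and its size was 2.38 without model c. SAR against model was not called (-0.56, adjusted p = 0.452), except without model c (-1.15, adjusted p = 0.0403). H2-Oa and H2-Eb2, a beta chain gene like H2-Eb1, were at the edge of detection. H2-Oa had 12 reads in SAR, 18 in model and 6 in normal libraries in all. H2-Eb2 had 17, 61 and 5 reads in SAR, model and normal libraries; only SAR against model reached the filter, and it was not called (-1.22, adjusted p = 0.269). The authors' deposited table, which lists genes below that minimum, gives H2-Eb2 a log2 fold of 3.11 with an adjusted p of 0.0421 in model against normal.

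For H2-Aa, H2-Ab1, H2-Eb1, Cd74, H2-DMa and H2-DMb1, both the higher call in model against normal and the lower call in SAR against model were kept whichever 1 library was left out. The highest adjusted p over these fits was 0.0113 for H2-DMa in model against normal and 0.0475 for H2-Ab1 in SAR against model.

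Class I heavy chain genes moved less, and unevenly. Against normal liver 6 of the 13 tested were higher in model liver, with a median log2 change of 0.70. Against model liver 3 of 13 were lower in SAR liver, with a median of -0.46. Against normal liver 1 of 13, H2-M2, was higher in SAR liver, with a median of 0.25. Of all genes tested, 19.9% were higher in model against normal, 16.1% lower in SAR against model and 1.71% higher in SAR against normal. Their medians were 0.03, 0.01 and -1e-04. The 3 of 13 lower in SAR against model are close to the share of all genes.

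H2-K1 and H2-D1 are the classical heavy chain genes. H2-K1 had 19961, 22043 and 22216 normalised reads in SAR livers, 15273, 15997 and 24778 in model livers, and 19078, 19764 and 18334 in normal livers. The model libraries spanned both other groups, a and b lying below and c above every SAR and normal library. The log2 change was 0.25 (95% interval -0.51 to 1.01, adjusted p = 0.595) in SAR against model and -0.07 (95% interval -0.91 to 0.78, adjusted p = 0.897) in model against normal. H2-D1 had 13502, 13841 and 14587 normalised reads in SAR livers, 17327, 17681 and 22472 in model livers, and 9704, 10695 and 15412 in normal livers. Every model library was above every SAR and every normal library, and normal c was above all 3 SAR libraries. Neither comparison of H2-D1 was called by limma, the log2 change being -0.42 (SE 0.29, adjusted p = 0.291) in SAR against model and 0.70 (SE 0.34, adjusted p = 0.133) in model against normal. The authors' deposited table has H2-D1 at a log2 fold of 0.68 with an adjusted p of 0.0263 in model against normal. By limma this change of H2-D1 was called with array weights (adjusted p = 0.00806), where 66.4% of all genes were called. It was also called with model c and normal c both left out (adjusted p = 0.00876), where 58% were. With all libraries and no weights 39% were called. The fit without both c libraries was added after seeing the data, so these calls are not independent evidence of a change.

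**Figure D2:**
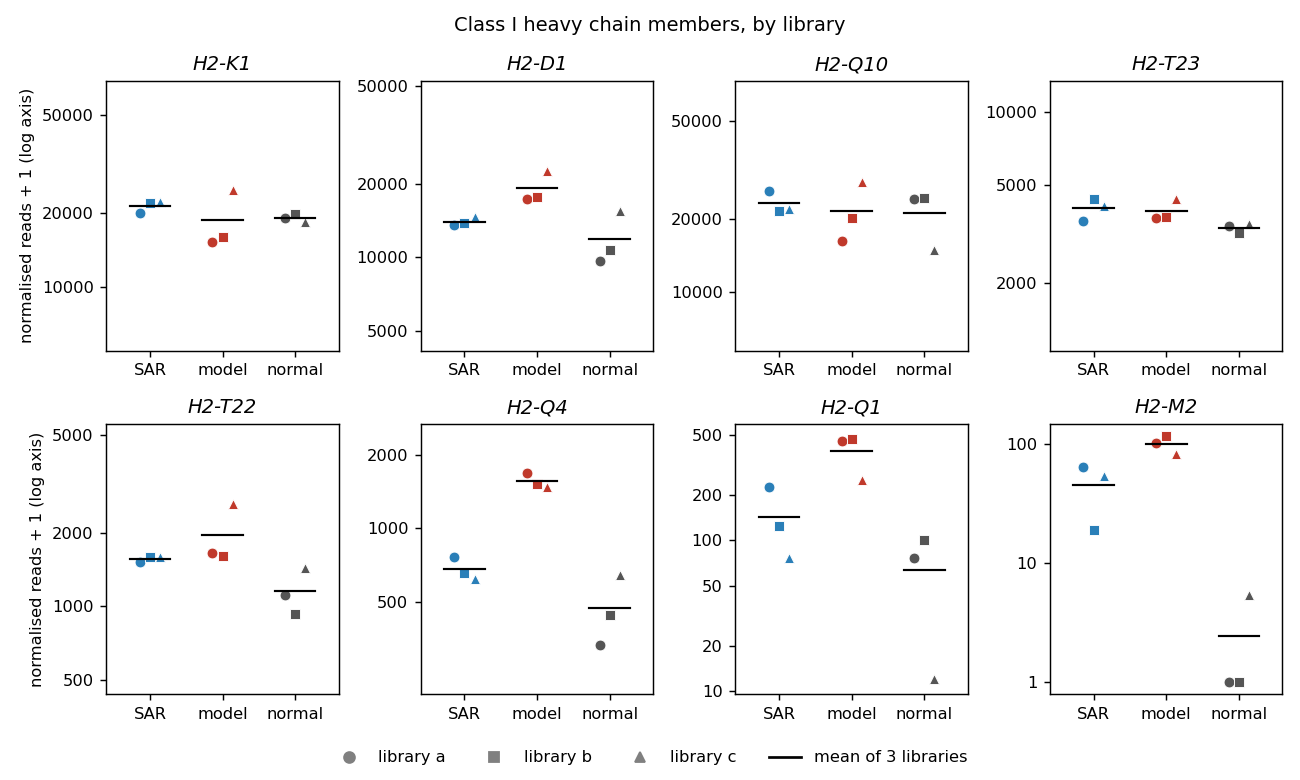
Normalised reads + 1 on a log axis for 8 class I heavy chain members, with 1 point per library in the SAR, model and normal groups and a bar at the mean of the 3 libraries. H2-Q4 is higher in all model libraries than in all others, H2-K1 and H2-Q10 are highest in model c and lowest in model a or normal c, and H2-M2 is at 0 reads in normal a and b.

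Among the nonclassical heavy chains, H2-Q10, which mouse hepatocytes secrete, had 25885, 21506 and 21994 normalised reads in SAR livers, 16202, 20074 and 28318 in model livers, and 24057, 24258 and 14892 in normal livers. Its groups overlapped fully, and neither comparison was called (log2 change 0.16, adjusted p = 0.760 in SAR against model, and 0.03, adjusted p = 0.967 in model against normal). H2-Q4 had 761, 657 and 623 normalised reads in SAR livers, 1679, 1514 and 1477 in model livers, and 334, 442 and 647 in normal livers. The model libraries were at least 1477 and all others at most 761, while normal c overlapped the SAR group. H2-Q4 had a log2 change of -1.17 (SE 0.15, adjusted p = 0.00143) in SAR against model and 1.76 (SE 0.23, adjusted p = 0.00232) in model against normal, and both calls were kept whichever 1 library was left out. H2-M3, known for presenting peptides that begin with N-formylmethionine, had 33.4, 26.6 and 53.9 normalised reads in SAR livers, 88.6, 67.9 and 98.1 in model livers, and 33.6, 30.2 and 43.0 in normal livers. SAR and normal libraries were intermixed for H2-M3 and model libraries lay above both, with a log2 change of -1.16 (SE 0.32, adjusted p = 0.0257) in SAR against model and 1.23 (SE 0.27, adjusted p = 0.011) in model against normal. The first of these calls was lost without SAR a, SAR b, model a or model b (adjusted p up to 0.0889).

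H2-Q1 had 226, 123 and 75.7 normalised reads in SAR livers, 455, 470 and 252 in model livers, and 75.9, 100.3 and 11.0 in normal livers. Model libraries were above all others, and normal c was far below normal a and b. The log2 change was -1.53 (SE 0.39, adjusted p = 0.0194) in SAR against model, a call lost without SAR b, SAR c, model a or model b (adjusted p up to 0.0750), and 3.06 (SE 0.75, adjusted p = 0.0164) in model against normal, lost without model a or model b (adjusted p up to 0.0664). The size in model against normal depended on normal c, without which the log2 change of H2-Q1 was 2.10 (SE 0.30, adjusted p = 0.00272). H2-M2, a nonclassical heavy chain gene with little sequence shared with other genes, had 63.2, 18.2 and 52.6 normalised reads in SAR livers, 101, 116 and 81.3 in model livers, and 0, 0 and 4.41 in normal livers. Every SAR and model library was above every normal one, and H2-M2 passed the filter on low values only through the groups where it was high, so its calls against normal say little beyond these values. In SAR against model, where both groups were above the minimum, its log2 change was -1.28 (SE 0.43, adjusted p = 0.0540) and was not called, although it was called without SAR a, without model c and in the authors' deposited table (adjusted p = 0.0348, 0.0346 and 0.0245). In SAR against normal the log2 change was 4.39 (SE 0.87, adjusted p = 0.0388), a call lost without any 1 of the SAR libraries, normal a or normal b (adjusted p up to 0.148), and in model against normal it was 5.93 (SE 0.76, adjusted p = 0.00217). With 4 reads in all normal libraries, the size of the change in model against normal depends on the pseudocount, and it was 6.63 with a pseudocount of 0.5 and 4.18 with one of 5. H2-M5 was seen only in model livers, with 11 reads in all, against 0 in SAR and 0 in normal; set against a floor of 3 reads over a group, it was at least 2.27-fold lower in SAR than in model and at least 2.67-fold higher in model than in normal, by counting alone, and it was too low to test.

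H2-Q7 and H2-T22 were higher in model against normal by smaller amounts. H2-Q7 had 200, 287 and 364 normalised reads in SAR livers, 393, 431 and 416 in model livers, and 241, 282 and 281 in normal livers. SAR a was below the normal libraries and SAR c above them, and the log2 change was 0.62 (SE 0.13, adjusted p = 0.0105) in model against normal, lost without model b (adjusted p = 0.0512), and -0.56 (adjusted p = 0.0798) in SAR against model, which was called only without SAR c (-0.76, adjusted p = 0.0412) among the fits with 1 library left out. H2-T22, whose product is a ligand of some gamma delta T cell receptors, had 1511, 1585 and 1589 normalised reads in SAR livers, 1647, 1598 and 2620 in model livers, and 1111, 927 and 1439 in normal livers. Model a and b were close to the SAR libraries and model c was apart from both. The log2 change of H2-T22 was 0.74 (SE 0.25, adjusted p = 0.0484) in model against normal, lost without any 1 of the model libraries, normal a or normal b (adjusted p up to 0.152). The 4 heavy chain genes H2-T23, H2-T24, H2-Q2 and H2-Q6 were called in none of the comparisons by limma, with adjusted p-values of 0.103 and above when all libraries were used. Without model c, H2-T24 was called lower in SAR against model (log2 change -1.27, adjusted p = 0.00955). H2-T23, whose product is the ligand of an inhibitory receptor on natural killer cells, ranged from 3575 to 4394 normalised reads in SAR livers, 3693 to 4384 in model livers and 3209 to 3482 in normal livers.

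Sequence sharing limits how far the reads of some members can be given to 1 gene. Of the 50-base words in annotated transcripts, 34.5% are shared with other genes for H2-T22, 32.0% for H2-Q6, 26.4% for H2-Q7, 21.8% for H2-Q4, 19.0% for H2-Q10, 12.8% for H2-D1 and 9.63% for H2-K1, but 3.17% for H2-T24, 1.61% for H2-M2 and 0.580% for H2-M3. Among class II genes it is 22.65% for H2-DMb1, 0.490% for H2-Aa and 0% for H2-Ab1, H2-Eb1, Cd74 and H2-DMa. How the authors counted reads with several matches is not given in the sources used here, so values of the genes with a high share, of either class, are uncertain.

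As a share of reads within each library, with no correction for gene length, class II reads made up 9.88%, 5.80% and 9.38% of class I heavy chain and class II reads together in SAR livers, 25.3%, 21.3% and 12.1% in model livers, and 4.45%, 4.29% and 4.05% in normal livers. Every model library was above every SAR library and every SAR library above every normal one. The means were 8.35% ± 2.22 in SAR, 19.5% ± 6.76 in model and 4.26% ± 0.20 in normal livers (SD, n = 3 each). The class II reads include Cd74 and the H2-DM and H2-O chains, while the class I reads leave out B2m. The secreted H2-Q10 made up on average 35.4% of the class I reads in SAR, 31.4% in model and 36.4% in normal livers. The share is therefore not a like-for-like contrast of the classes. Summed class II values were 6002 ± 1765 normalised reads in SAR, 15902 ± 3865 in model and 2567 ± 226 in normal livers (SD, n = 3 each). Summed class I heavy chain values were 65400 ± 714 in SAR, 67976 ± 14968 in model and 57576 ± 2678 in normal livers (SD, n = 3 each), and model c, at 85037, had the highest class I sum and, at 11705, the lowest class II sum of the model libraries.

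**Figure D3:**
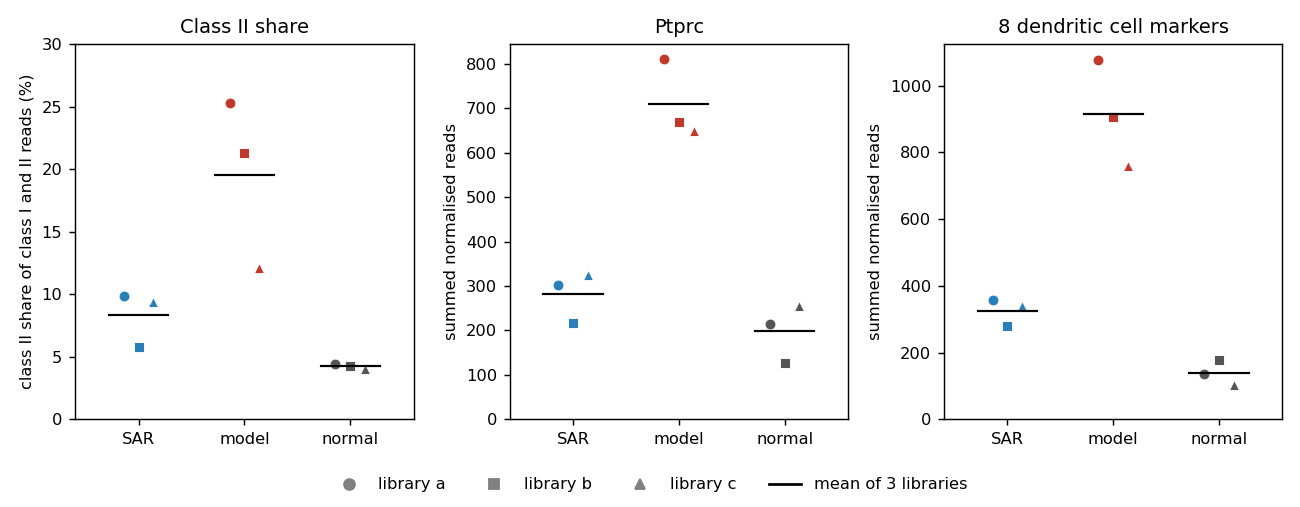
Share of class II reads among class I heavy chain and class II reads (%), normalised reads of the leukocyte gene Ptprc, and summed normalised reads of 8 dendritic cell markers, with 1 point per library in the SAR, model and normal groups and a bar at the mean. In all 3 panels every model library is above every SAR and normal library, and the class II share of model c is 12.1%, against 25.3% and 21.3% in model a and b. Of the dendritic cell markers, Itgax alone has 465 to 571 normalised reads in the model libraries.

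Promoters are shown because both classes are known for shared promoter motifs. RefSeq sequence (GRCm38.p6) from 250 bases before to 50 bases after the start was held for 27 of the 37 members, with none for H2-Ab1, and was read on the strand of the gene. The Y box core GATTGG, the motif bound by NF-Y, was present on the gene's own strand in 8 of 8 class II members with a sequence and in 1 of 12 class I heavy chain members, H2-T22, against 9.91% of 27025 genes. On the opposite strand, where it reads CCAATC, it was present in 7 of 12 class I heavy chain members and in 1 of 8 class II members, H2-Eb1, against 9.62% of genes. The X box core AACNGAT, from the motif bound by the RFX complex, was present on the gene's strand in 4 of 8 class II members (H2-DMb1, H2-DMb2, H2-Eb1 and H2-Eb2) and in 0 of 12 class I members, against 3.85% of genes, and on the opposite strand in 0 members of either class, against 4.18% of genes. The 2 motifs do not overlap in these promoters. The matches are a description of letters and not of binding, and were not tested against the changes.

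The sequences below run from 180 bases before to 20 after the start, 5′ to 3′ on the gene's strand, with the motifs in capitals; the first 3 are class II and the last 3 class I. In H2-Eb1 the X box core begins at position -89 from the start and the Y box core at -60, in H2-DMb1 at -92 and -62, and in H2-Aa the Y box core begins at -49. In H2-D1 and H2-Q4 the CCAATC begins at -53 and -55. In H2-K1 it begins at position 8, after the start used for the printed sequence, and at -6 from another start that was also scanned.
H2-Aa, GRCm38.p6 chr17:34287804-34288003, minus strand: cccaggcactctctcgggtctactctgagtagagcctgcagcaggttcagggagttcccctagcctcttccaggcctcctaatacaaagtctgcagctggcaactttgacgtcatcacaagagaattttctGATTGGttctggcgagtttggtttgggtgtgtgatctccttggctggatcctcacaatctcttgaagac
H2-Eb1, GRCm38.p6 chr17:34305687-34305886, plus strand: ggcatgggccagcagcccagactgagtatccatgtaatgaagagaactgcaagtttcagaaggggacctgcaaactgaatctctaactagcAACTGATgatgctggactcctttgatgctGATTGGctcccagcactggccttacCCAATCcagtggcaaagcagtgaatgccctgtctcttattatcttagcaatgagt
H2-DMb1, GRCm38.p6 chr17:34153011-34153210, plus strand: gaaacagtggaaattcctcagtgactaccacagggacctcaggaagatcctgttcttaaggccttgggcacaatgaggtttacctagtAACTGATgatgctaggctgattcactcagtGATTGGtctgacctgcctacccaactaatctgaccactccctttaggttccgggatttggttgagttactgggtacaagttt
H2-D1, GRCm38.p6 chr17:35262914-35263113, plus strand: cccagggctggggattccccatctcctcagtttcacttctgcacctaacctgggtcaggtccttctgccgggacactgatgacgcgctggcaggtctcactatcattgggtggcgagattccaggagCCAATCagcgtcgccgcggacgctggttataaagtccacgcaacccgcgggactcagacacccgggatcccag
H2-K1, GRCm38.p6 chr17:34000328-34000527, minus strand: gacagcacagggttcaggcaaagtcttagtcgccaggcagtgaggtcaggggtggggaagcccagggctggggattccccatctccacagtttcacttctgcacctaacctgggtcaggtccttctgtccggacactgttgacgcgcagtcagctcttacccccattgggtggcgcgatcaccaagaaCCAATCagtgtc
H2-Q4, GRCm38.p6 chr17:35379437-35379636, plus strand: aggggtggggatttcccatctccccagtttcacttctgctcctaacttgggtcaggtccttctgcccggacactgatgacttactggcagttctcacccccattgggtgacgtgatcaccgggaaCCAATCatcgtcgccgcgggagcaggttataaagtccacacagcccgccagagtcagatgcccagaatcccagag

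B2m, the light chain of every class I molecule, had 34481, 40666 and 40296 normalised reads in model livers, against 28690, 29329 and 27251 in normal livers. The groups did not overlap, but the change was not called (log2 change 0.43, SE 0.43, adjusted p = 0.452). Without the variance trend its SE was smaller and the change was still not called. For SAR, the authors' deposited table gives group means of 46770 in SAR and 39164 in model livers, a fold of 1.19 with an adjusted p of 0.535. Tap1 and Tap2 encode the subunits of the peptide transporter, and Tapbp encodes tapasin, which ties it to class I. Tap1 had 259, 231 and 353 normalised reads in SAR livers, 476, 402 and 419 in model livers, and 339, 289 and 280 in normal livers. Its model libraries were above all others, and SAR and normal libraries were intermixed. Tap2 had 251, 154 and 207 normalised reads in SAR livers, 359, 315 and 234 in model livers, and 123, 113 and 148 in normal livers. For Tapbp the values were 1155, 1033 and 1115 normalised reads in SAR livers, 1637, 1583 and 1500 in model livers, and 776, 738 and 1044 in normal livers. In model against normal all 3 were higher, with log2 changes of 0.51 for Tap1 (SE 0.14, adjusted p = 0.0263), 1.22 for Tap2 (SE 0.20, adjusted p = 0.00474) and 0.90 for Tapbp (SE 0.17, adjusted p = 0.00658). Tap2 and Tapbp kept the call whichever 1 library was left out, and Tap1 lost it without model a, model b, normal b or normal c (adjusted p up to 0.0891). In SAR against model Tap1 (-0.62, SE 0.19, adjusted p = 0.0360) and Tapbp (-0.49, SE 0.14, adjusted p = 0.0293) were lower, and Tap2 was not called (-0.56, SE 0.23, adjusted p = 0.0977), except without model c (-0.73, adjusted p = 0.0235). Both calls were lost without SAR b, model a or model b, and also without SAR a for Tap1 and SAR c for Tapbp (adjusted p up to 0.129 for Tap1 and 0.115 for Tapbp).

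Erap1, the aminopeptidase that trims peptides in the endoplasmic reticulum, moved the other way. It had 592, 827 and 749 normalised reads in SAR livers, 358, 364 and 598 in model livers, and 859, 689 and 953 in normal livers. Model c, at 598, was just above SAR a, at 592, on this scale, and SAR and normal libraries were intermixed. Erap1 was the only member called higher in SAR against model (log2 change 0.76, SE 0.23, adjusted p = 0.0343), and it was lower in model against normal (-0.95, SE 0.23, adjusted p = 0.0164). The first call was lost without SAR b, SAR c, model a or model b (adjusted p up to 0.128), the second without model a, model b or normal a (adjusted p up to 0.0670). Tapbpl, a peptide editor related to tapasin, was called in no comparison, with log2 changes of -0.08 (95% interval -0.42 to 0.26) in SAR against model and 0.17 (95% interval -0.30 to 0.64) in model against normal.

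Of the regulators, Ciita followed the class II genes. It had 22.7, 27.8 and 51.3 normalised reads in SAR livers, 140, 115 and 98.1 in model livers, and 19.2, 24.8 and 20.9 in normal livers. Each model library was above all others, and SAR a and b were within or just above the normal range while SAR c was higher. The log2 change was -1.81 (SE 0.33, adjusted p = 0.00595) in SAR against model and 2.38 (SE 0.26, adjusted p = 0.00143) in model against normal, kept whichever 1 library was left out, and 0.54 (adjusted p = 0.412) in SAR against normal, which was not called. Nlrc5 had 379, 349 and 403 normalised reads in SAR livers, 694, 521 and 561 in model livers, and 240, 263 and 411 in normal livers. Its model libraries were above all others and normal c was above the SAR libraries, with log2 changes of -0.62 (SE 0.16, adjusted p = 0.0194) in SAR against model and 0.98 (SE 0.23, adjusted p = 0.0132) in model against normal. The first was lost without SAR b or model a (adjusted p up to 0.0780) and the second without model a or normal a (adjusted p up to 0.0554). Rfx5, a subunit of the complex that binds the X box, had 21.5, 43.6 and 56.4 normalised reads in SAR livers, 69.2, 46.6 and 41.5 in model livers, and 33.6, 33.4 and 28.7 in normal livers. The model libraries of Rfx5 were above the normal ones, but neither comparison was called (adjusted p = 0.454 in SAR against model and 0.110 in model against normal).

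**Figure D4:**
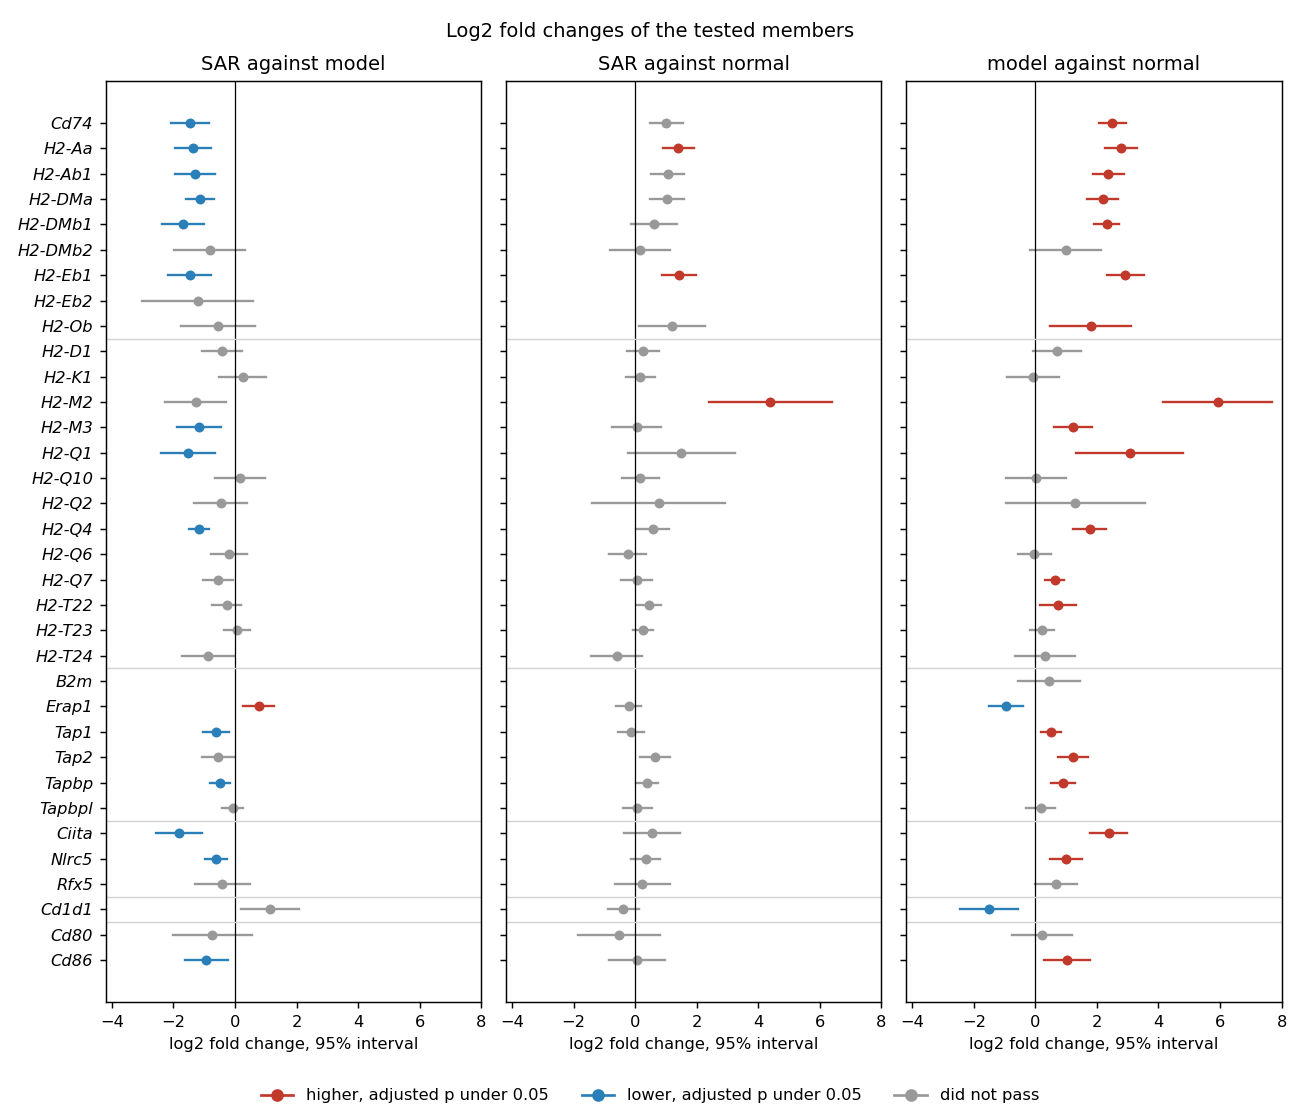
Log2 fold changes of the tested members on the log2(value + 1) scale with unadjusted 95% intervals, in SAR against model, SAR against normal and model against normal, with class II members at the top and class I heavy chains next. Red and blue mark members higher and lower at an adjusted p under 0.05; 6 class II members are lower in SAR against model and 7 are higher in model against normal, and Erap1 is the only member higher in SAR against model.

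Cd1d1 presents lipids to natural killer T cells and is not a peptide presenter. It had 1654, 2776 and 2872 normalised reads in SAR livers, 719, 791 and 2240 in model livers, and 3003, 3359 and 2887 in normal livers. Model c lay within the SAR range, while model a and b were below every other library. Cd1d1 was lower in model against normal (log2 change -1.51, SE 0.40, adjusted p = 0.0227), a call lost without model a, model b, normal a or normal b (adjusted p up to 0.0869), and was not called in SAR against model (1.14, SE 0.41, adjusted p = 0.0652). Without model c, the adjusted p of SAR against model was 0.000520. Of its 50-base words 19.1% are shared with Cd1d2.

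Cd80 and Cd86 are the costimulatory ligands that antigen-presenting cells show to T cells. Cd86 had 39.4, 32.7 and 68.0 normalised reads in SAR livers, 96.5, 87.0 and 78.9 in model livers, and 44.2, 62.6 and 27.6 in normal livers. Its model libraries were above all others, with log2 changes of -0.94 (SE 0.31, adjusted p = 0.0475) in SAR against model and 1.02 (SE 0.32, adjusted p = 0.0399) in model against normal. The first was lost without SAR a, SAR b, model a or model b (adjusted p up to 0.149) and the second without any 1 library other than normal b (adjusted p up to 0.126). Cd80 had 10.7, 25.4 and 6.41 normalised reads in SAR livers, 23.1, 27.5 and 15.2 in model livers, and 15.4, 15.1 and 25.4 in normal livers, and its groups overlapped with no call.

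Genes that act beside the members were counted on lists of pathway genes. The counts of these lists, and of the cell marker lists, stand beside the shares of all genes tested. In model against normal 19.9% of all genes were higher and 19.1% lower, and in SAR against model 16.1% were lower and 13.2% higher. In SAR against normal 1.71% were higher. With lists this short, counts of 1 or 2 genes called are not read as results about the list. Of 8 genes that process antigen or class II molecules, 6 were lower in SAR against model (Cd63, Ctsd, Ctss, Ifi30, Lgmn and March1) and 6 were higher in model against normal (Cd63, Ctsb, Ctsd, Ctss, Ifi30 and Lgmn). Ctss, the protease that degrades the invariant chain, had 1241, 923 and 1489 normalised reads in SAR livers, 4050, 3575 and 4180 in model livers, and 648, 701 and 1209 in normal livers. Model libraries of Ctss lay far above both other groups, with log2 changes of -1.69 (SE 0.20, adjusted p = 0.00123) in SAR against model and 2.26 (SE 0.25, adjusted p = 0.00144) in model against normal. Of 7 genes that supply class I peptides, the immunoproteasome subunits Psmb8, Psmb9 and Psmb10 and the activator subunits Psme1 and Psme2 were higher in model against normal, and 2, Psmb9 and Lnpep, were lower in SAR against model. In SAR against normal Psme1 (log2 change 0.79, adjusted p = 0.0341), Psme2 (0.70, adjusted p = 0.0485) and Psmb10 (1.07, adjusted p = 0.0485) were called higher. The last 2 were just under the threshold, and these calls were not followed with 1 library left out. Of 4 chaperones of class I loading, Canx and Hspa5 were lower in model against normal, and Hspa5 was higher in SAR against model.

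On the interferon gamma axis, 5 of 8 genes tested were higher in model against normal (Ifngr1, Ifngr2, Irf1, Irf8 and Jak2), and in SAR against model 3 were lower (Ifngr1, Ifngr2 and Irf8) and 1, Irf2, was higher. Ifng itself was too low to test. It was at 0 reads in all normal libraries, in model a and b and in SAR b. Model c had 3.99 normalised reads, and SAR a and c had 1.19 and 1.28. Of 6 partners of RFX5 and CIITA at class II promoters, Nfya was higher in model against normal (log2 change 0.99, adjusted p = 0.0265), and in SAR against model Nfya was lower and Nfyb higher. Of 4 further costimulatory or inhibitory ligands and receptors tested, 4 were higher in model against normal (Cd40, Cd83, Cd274 and Icosl), and 3 were lower in SAR against model (Cd40, Cd83 and Icosl). Of 5 T cell genes that take part in recognising MHC or in signalling from it, Cd4, Cd8a, Cd8b1 and Cd3e were higher in model against normal. Cd4 and Cd3e were lower in SAR against model. Cd8a, part of the receptor for class I, had 8.64, 3.24 and 9.92 normalised reads in normal livers and 124, 115 and 68.6 in model livers. Its log2 change was 3.73 (SE 0.47, adjusted p = 0.00211) in model against normal. In that comparison Cd8a, Cd8b1 and Cd40 passed the filter on low values only through the model group. Cd40 and Cd3e did so in SAR against model. The calls of these genes say little beyond their values.

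Several lists of immune cell markers changed in the same directions as the class II genes. B cell markers were not called, and macrophage markers were mixed. Of all genes tested, 19.9% were higher in model against normal and 16.1% lower in SAR against model. The leukocyte marker Ptprc was lower in SAR against model (log2 change -1.33, SE 0.19, adjusted p = 0.00214) and higher in model against normal (1.88, SE 0.26, adjusted p = 0.00265). The 8 dendritic cell markers summed to 278 to 357 normalised reads in SAR livers, 761 to 1076 in model livers and 103 to 177 in normal livers. Itgax alone had 92.0 to 155 normalised reads in SAR livers, 465 to 571 in model livers and 11.5 to 18.7 in normal livers. The sum in model livers thus rests largely on this 1 gene. Of the 8, 3 (Ccr7, Itgax and Siglech) were lower in SAR against model and 7, all except Zbtb46, were higher in model against normal. In model against normal Ccr7, Cd209a and Xcr1 passed the filter on low values only through the model group. The 7 macrophage markers summed to 3661 to 4996 in SAR, 10250 to 10810 in model and 3905 to 4861 in normal livers. Of these, 4 (Adgre1, Cd68, Csf1r and Lyz2) were lower in SAR against model. In model against normal Cd68, Csf1r and Lyz2 were higher, and Clec4f and Timd4, markers of resident Kupffer cells, were lower. Clec4f and Timd4 were not called in SAR against model (log2 changes 0.02 and 0.97). Both were lower in SAR against normal (-1.12, adjusted p = 0.0271, and -2.64, adjusted p = 0.0485), calls not followed with 1 library left out. Lyz2 alone had 5570 to 7097 normalised reads in model livers, against 832 to 897 in normal livers. All 4 monocyte markers were lower in SAR against model and 3 were higher in model against normal, with sums of 176 to 296 in SAR, 934 to 1129 in model and 104 to 362 in normal livers. The 4 B cell markers tested were not called in either comparison, with an adjusted p of 0.0540 for Ms4a1 in model against normal and higher ones for the others, and their sums were 60.5 to 96.2 in SAR, 109 to 126 in model and 49.9 to 83.8 in normal livers. T and NK cell markers summed to 104 to 171 in SAR, 257 to 407 in model and 59.3 to 87.4 in normal livers, and 2 of 6 tested were lower in SAR against model and 5 were higher in model against normal. Of these, Cd8a and Cd3d passed the filter only through the model group in model against normal, and Cd3e did in SAR against model. No marker of these lists was at 0 in all libraries of a group. The part of these cells in the changes of the members was not tested.

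Markers of other liver cells moved too. The 4 cholangiocyte markers summed to 109 to 270 normalised reads in SAR, 202 to 1208 in model and 99.9 to 182 in normal livers, the lowest model value being that of model c. The 4 stellate cell markers summed to 2293 to 3766 in SAR, 7060 to 10903 in model and 857 to 2981 in normal livers. Neutrophil markers summed to 134 to 487 in SAR, 707 to 2285 in model and 61.5 to 5810 in normal livers, and 3 of 4 tested were lower in SAR against model. Of 5 sinusoidal endothelial markers, Lyve1 and Stab1 were lower in SAR against model, and in model against normal Stab1 was higher and Stab2 and Clec4g were lower; their sums were 965 to 1616 in SAR, 1780 to 2158 in model and 1618 to 2794 in normal livers. The part of these cells in the members' changes was not tested. A fit with model c and normal c both left out was added after seeing the data. In it 23 members were called in model against normal, 21 higher and 2 lower. Of all genes 58% were called, against 39% with all libraries. The median log2 change was 2.51 for class II and 0.65 for class I.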

How the data were processed

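Per the labels' protocols, liver RNA of 3 groups of 3 samples came from Trizol extracts and NEBNext Ultra libraries. Per the submitters' processing notes, mm9 was the build. The sources used here name no aligner, counter, annotation or strand setting, so reads of overlapping and antisense genes may be mixed. Per the file headers, 2 tables of group means were deposited. Per the file headers, the deposited signal is a mean read count divided by size factors, the deposited ratio is the fold of 2 such means, the log2 value is the log2 of that deposited fold, and the p-value and adjusted p-value come from the authors' DESeq test.

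The design had named a count test in case the files held counts. They hold group means, so limma 3.58.1 (R 4.3.3) was used, with a variance trend. Reads per library were recovered first, since a mean with 15 digits is a sum of 3 whole numbers times constants of the libraries. Of 624 abundant genes of the normal group 590 had 1 solution, and of 594 of the SAR group 567; lower genes and all 16057 model genes solved from both tables had 1 each. Of 2000 means of lower genes in the normal group, moved by a tiny amount, 0 were solved. Abundant genes were not tried in this way. In all, 16434 of 16521 IDs were recovered in all 9 libraries. Tests used the authors' size factors within each table; recomputed factors differed from them by at most 0.258%. Log2 changes on the scale of the printed values differ by at most 0.02 from those of the tests. SAR against normal used recomputed factors. The floor is 3 reads over a group, and it covers counting error only.

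Members and lists were chosen with earlier results of these data known. Every member is accounted for, with values per library for the chains, loading factors, regulators and other members called, and ranges for the rest. Of the pathway lists, 1 gene is not reported here, and the counts of its list leave it out. A table of gene names gave symbols for 16490 IDs and none for 31. Shared 50-base words came from GENCODE release 21 transcripts of mouse. The recovery and the fits were tested on simulated data.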

Additional observations from a re-analysis of the deposited data

How the results depend on the processing

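No paired analysis was possible because the recovered libraries carry none of the labels' replicate numbers. Under upper-quartile scaling, pseudocounts of 0.5 and 5, a minimum mean of 50, no filter, no variance trend, array weights, 1 fit over the 9 libraries, the authors' deposited test and voom on recovered reads (added after seeing the data), 17 to 23 members were called in model against normal and 11 to 22 in SAR against model; the upper counts come from array weights, which called 66.4% and 55.3% of all genes, against 39% and 29.3% in the tests as reported, and the medians of both classes kept their sign in every comparison. SAR against normal was less settled: with 3 members called, 0 were called by limma without a variance trend (8 had an unadjusted p under 0.05), 9 with array weights (12.8% of all genes, against 3.54%), 5 in 1 fit over the 9 libraries and 2 by voom. With 1 library left out, 13 to 20 members were called in model against normal, 8 to 21 in SAR against model and 0 to 10 in SAR against normal, while 19.6% to 46%, 12.5% to 41.4% and 0.0519% to 9.38% of all genes were called. The class II median then ranged from -1.54 to -1.01 in SAR against model and from 0.90 to 1.32 in SAR against normal, and the class I median from 0.57 to 0.77 in model against normal. Upper-quartile scaling moved the median log2 change of all genes in model against normal to 0.12, against 0.03; it called 2860 genes higher and 2050 lower, against 2507 and 2401, and 20 members higher and 2 lower. The authors' deposited test did not call Cd86, Tap1, H2-Ob, H2-T22 and H2-Q7 in model against normal, nor Cd86, Tapbp, Tap1 and Nlrc5 in SAR against model. H2-Oa, H2-M5 and H2-Eb2 are limited by depth.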
